A study of Mus musculus with 9 samples.

Results

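The genes described here are 10 members of the interleukin-6 (IL-6) and STAT3 signalling route and of the acute phase response, picked by symbol out of the 24421 genes counted in 9 mouse RNA sequencing libraries. They are the receptor subunits Il6ra, Il6st and Osmr, the transcription factor Stat3, the transcriptional regulators Cebpd and Bcl3, and the secreted proteins Lcn2, Hp, Cp and Lbp. All 10 symbols were found in every library. The members and the further gene lists were chosen with earlier results of these data known. Shares of them set beside shares of all genes are therefore descriptions, not tests. The series title places the study in cancer cachexia, a tumour-driven loss of muscle and weight, and in the uptake of the Wnt co-receptor LRP6 driven by Dkk1.

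In kidney, 1 library came from a tumour-bearing mouse given PBS and 1 from a wild type mouse given PBS. In muscle, 1 tumour library with MDC and 1 tumour library with PBS were made. A further 2 muscle libraries are labelled beta-arrestin knockout, 1 with DKK1 and 1 with PBS. The remaining muscle libraries were wild type, 1 with DKK1 and 2 with PBS. DKK1 is a secreted protein that blocks Wnt signals at LRP5 and LRP6, beta-arrestins help to take receptors into the cell, and PBS is the saline vehicle. The labels do not say which tumour, which beta-arrestin gene, which muscle, what dose, or what strain, sex and age, and MDC is named there by its letters alone. Nothing in them says whether the wild type PBS muscle libraries came from separate animals, so their spread may be technical.

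IL-6 binds the receptor encoded by Il6ra, and the complex engages the shared signal-transducing subunit gp130, encoded by Il6st. Janus kinases bound to gp130 then phosphorylate STAT3, which enters the nucleus and switches on genes that include Cebpd, Bcl3 and Stat3 itself. In liver this route drives the acute phase response, the release of plasma proteins such as haptoglobin during inflammation. Oncostatin M signals through gp130 paired with the receptor encoded by Osmr. In skeletal muscle, prolonged STAT3 signalling is known to accompany wasting, and in kidney Lcn2 is a known marker of tubule injury.

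Total counts were 44421797 in the tumour kidney and 42480786 in the wild type kidney, and between 21358854 and 32607835 per muscle library. A count of 0 allowed up to 3 counts, equal to between 0.0673 and 0.141 CPM, the unit of counts scaled to library size. Summed skeletal muscle markers reached between 65157 and 221613 CPM in the muscle libraries and 173 and 236 CPM in the tumour and wild type kidneys. Arrb1 was at 28.2 and 20.5 CPM in the libraries labelled knockout with DKK1 and with PBS, against 22.1 CPM in wild type DKK1 muscle and 17.3 and 20.3 CPM in wild type PBS muscle. Arrb2 was at 7.98 and 9.61 CPM in the libraries labelled knockout, against 8.32, 7.59 and 7.85 CPM in those wild type libraries. Neither gene was markedly lower under the knockout label, with only Arrb2 slightly below wild type in the DKK1 pair, and the label is therefore used as a label alone. The tables carry the set letters A for kidney, B for both tumour muscle libraries and wild type PBS library 1, and C for the rest. Each group of 1 library can be compared within its own set. Against a library of another set, set and group cannot be told apart. The wild type PBS muscle libraries span sets B and C, so their spread holds any set difference as well.

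Il6st and Stat3 were the most abundant members in the wild type kidney. Per length, in the deposited RPKM, Il6st was at 24.0, Stat3 at 18.9, and every other member between 0.690 and 5.68 RPKM in that library. In the tumour kidney the order differed: Hp led with 98.6 RPKM and Lcn2 followed with 90.9 RPKM, ahead of Stat3 at 48.3 and Il6st at 23.7 RPKM. Il6ra, the subunit that binds IL-6 itself, was at 1.29 RPKM in the tumour kidney and 0.753 RPKM in the wild type kidney. In tumour PBS muscle the highest members were Cebpd at 57.9, Hp at 50.8 and Il6st at 31.8 RPKM, and Il6ra was again the lowest at 0.954 RPKM.

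**Figure D1:**
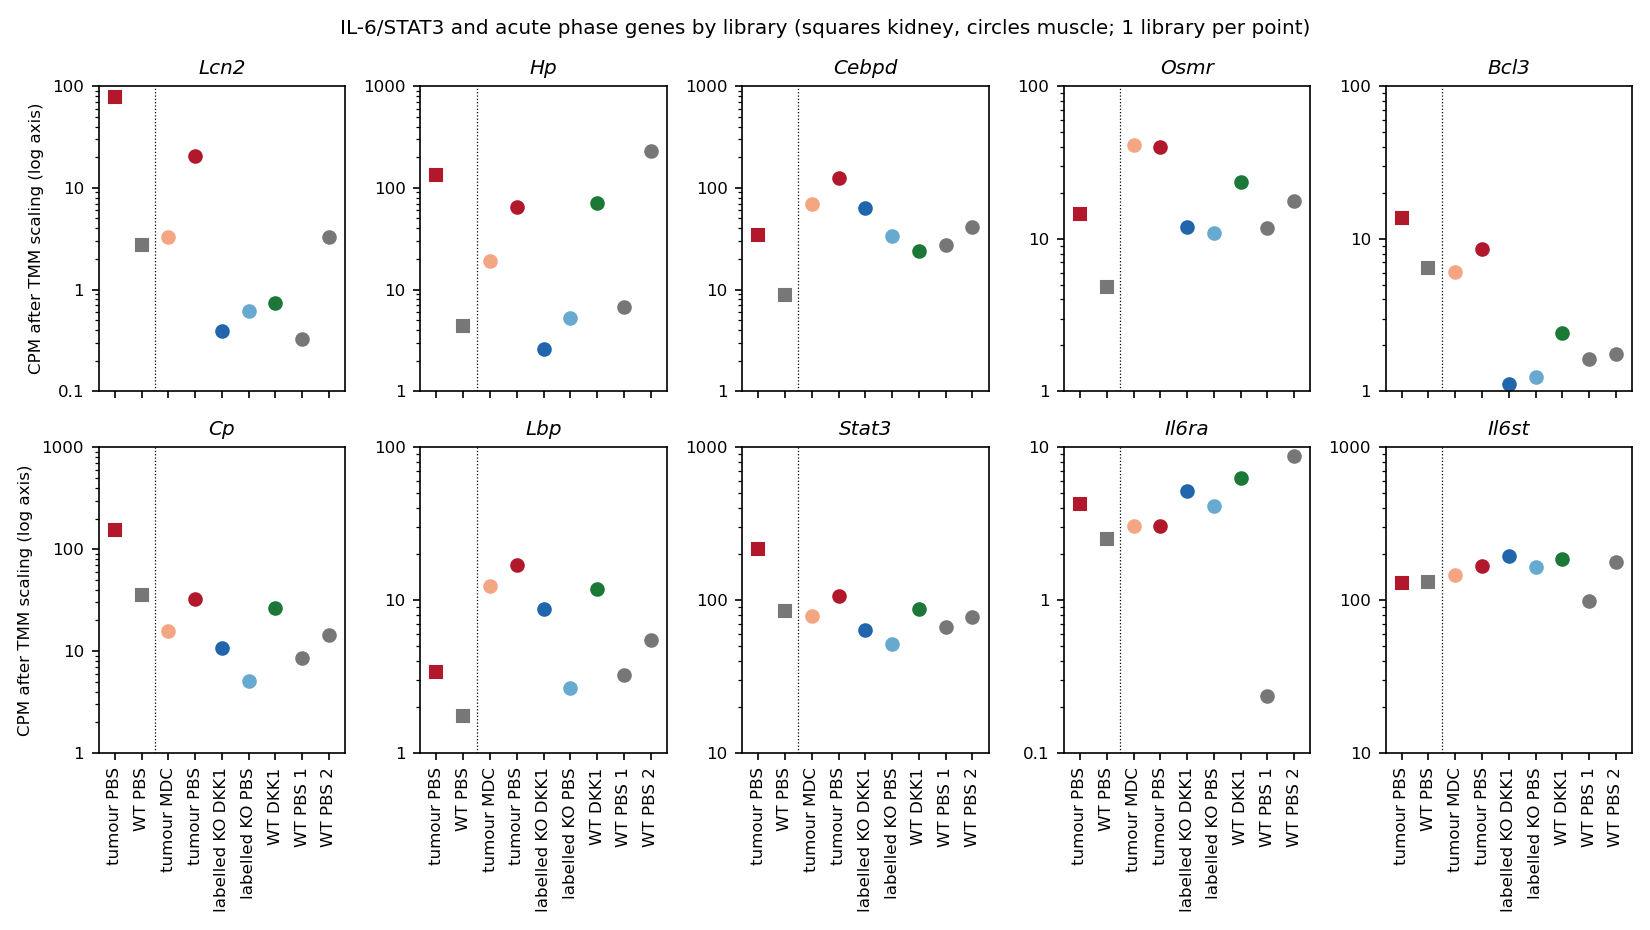
Level of each of the 10 genes in CPM on a log axis in the 2 kidney and 7 muscle libraries, 1 point per library. Lcn2 and Hp lie far apart between tumour kidney and wild type kidney, and tumour PBS muscle holds the highest point of the muscle libraries for 6 genes.

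The kidney comparison asks how these genes differed between an animal with a tumour and one without. In the tumour kidney 7 of 10 members were higher by the size rule, which requires that CPM differ at least 2-fold and that the higher library hold at least 100 counts, and 0 were lower. Over all genes that reached the count minimum, 5.75% were higher and 4.09% were lower. All 10 members reached the minimum, and their median log2 ratio was 1.47, against 0.01 over all those genes. With 1 library per group there was no replicate check and no test, and each interval given for a ratio is an exact 95% interval for counting error only.

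Among the secreted acute phase proteins, Hp and Lcn2 had the largest ratios. Hp, which encodes haptoglobin, the plasma scavenger of free haemoglobin, was at 132 CPM in the tumour kidney and 4.42 CPM in the wild type kidney, a ratio of 29.9 (25.9 to 34.8). Lcn2, which encodes lipocalin-2, a protein that captures bacterial iron carriers, was at 77.3 CPM in the tumour kidney and 2.74 CPM in the wild type kidney, a ratio of 28.2 (23.4 to 34.2). Both moved by about the same factor, with overlapping intervals. Cp, which encodes the copper-carrying ferroxidase ceruloplasmin, was at 153 CPM against 35.7 CPM, a ratio of 4.29 (4.05 to 4.53). Lbp, which encodes the lipopolysaccharide binding protein, was at 3.41 CPM in the tumour kidney and 1.75 CPM in the wild type kidney, and its ratio of 1.95 (1.47 to 2.61) lay just under the limit.

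The regulators and the receptor for oncostatin M were also higher, by smaller factors. Cebpd, which encodes the transcription factor C/EBP delta, was at 34.2 CPM in the tumour kidney and 8.81 CPM in the wild type kidney, a ratio of 3.88 (3.47 to 4.36). Osmr was at 14.6 CPM against 4.82 CPM, a ratio of 3.02 (2.58 to 3.55). Stat3 was at 216 CPM against 85.0 CPM, a ratio of 2.54 (2.45 to 2.64). Bcl3, which encodes an I-kappa-B family protein that acts in the nucleus with NF-kappa-B subunits, had a ratio of 2.13 (1.84 to 2.46), from 610 counts in the tumour kidney and 272 counts in the wild type kidney. It was the called member nearest the limit.

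Of the receptor subunits for IL-6, neither passed the limit. Il6ra was at 4.28 CPM in the tumour kidney and 2.53 CPM in the wild type kidney, a ratio of 1.69 (1.33 to 2.17). Il6st was at 129 CPM in the tumour kidney and 132 CPM in the wild type kidney, a ratio of 0.978 (0.943 to 1.02) from 5737 and 5566 counts. Il6, the ligand itself and a gene named after its values were seen, had 0 counts in both kidneys.

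The other genes of the pathway showed more higher than lower values as well. Of 61 further genes in lists of ligands, receptors, kinases, feedback regulators, STAT3 targets and acute phase proteins, 17 were higher by the size rule in the tumour kidney, 0 were lower, and 20 had too few counts. With the members included, 13 of 25 acute phase genes, 7 of 16 STAT3 targets and 2 of 7 receptors were higher. The largest ratio was that of Itih4, an inter-alpha-trypsin inhibitor chain, at 15.9 CPM in the tumour kidney and 0.189 CPM in the wild type kidney. Apcs, serum amyloid P, was at 7.27 CPM in the tumour kidney and 0.213 CPM in the wild type kidney. C3, the central complement protein, was at 868 CPM in the tumour kidney and 35.8 CPM in the wild type kidney. These are all plasma proteins best known from liver. The protease inhibitor Serpina3n was at 27.1 CPM against 1.68 CPM, and the fibrinogen chains Fgg and Fga were at 22.8 and 131 CPM in the tumour kidney, against 2.65 and 16.2 CPM in the wild type kidney. Socs3, the feedback inhibitor of gp130 signalling, was at 13.7 CPM in the tumour kidney and 2.84 CPM in the wild type kidney, and it is given here because of its value in muscle.

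Markers of other cells differed between the same kidneys. Summed adipocyte markers were at 1493 CPM in the tumour kidney and 145 CPM in the wild type kidney, with 6 of 7 genes higher by the size rule. Kidney tubule injury markers summed to 20292 CPM in the tumour kidney and 1146 CPM in the wild type kidney, with 3 of 7 higher, and Spp1 alone made up 19456 CPM in the tumour kidney. Neutrophil markers summed to 23.4 CPM against 2.34 CPM, with 2 of 13 higher. The part of these cells in the changes of Hp and Lcn2 was not tested. Lcn2 alone was at 330% of the summed neutrophil markers in the tumour kidney and 117% in the wild type kidney. Erythroid markers summed to 1159 CPM in the tumour kidney and 284 CPM in the wild type kidney, with 2 of 3 higher. Hepatocyte markers summed to 185 CPM in the tumour kidney and 180 CPM in the wild type kidney, with 1 of 7 higher. That gene, Serpina1a, was at 80.4 CPM against 14.8 CPM, while Ttr was at 77.1 CPM against 125 CPM and Alb, the albumin gene, at 4.46 CPM against 4.49 CPM. In bulk tissue such as this, more or fewer cells of a type and more or less RNA per cell cannot be told apart.

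In muscle, tumour PBS against wild type PBS asks the same question in the other tissue. By the size rule 6 of 10 members were higher than in each wild type library, 0 were lower, and the corresponding shares over all genes were 1.37% higher and 0.419% lower. The 6 were Lcn2, Cebpd, Osmr, Bcl3, Cp and Lbp. The median log2 change of the 10 members was 2.30 against wild type library 1 and 1.17 against library 2. Over all genes the median was 0.05, with the wild type libraries averaged. The share of genes called by edgeR's quasi-likelihood test with Benjamini-Hochberg adjustment was 0% in every muscle comparison. In tumour against wild type that test gave 165 of 15482 genes an unadjusted p under 0.05, and DESeq2 called 12 genes and limma-voom 0. None of the members was among the 12, and each of the 6 had an unadjusted p under 0.05 and an adjusted p of 1 in edgeR.

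Lcn2 had the largest change in muscle. It was at 20.6 CPM in tumour PBS muscle, against 0.328 and 3.27 CPM in the wild type libraries, a log2 change of 3.51 ± 1.10 (SE) with an adjusted p of 1 in edgeR's quasi-likelihood test. The tumour value lay above both wild type values, which themselves differed 9.98-fold. Lbp was at 16.9 CPM in tumour PBS muscle, against 3.23 and 5.45 CPM in wild type muscle, a log2 change of 1.96 ± 0.73 (adjusted p = 1, edgeR). Cp was at 32.1 CPM in tumour PBS muscle, against 8.62 and 14.4 CPM in wild type muscle (log2 change 1.48 ± 0.63, adjusted p = 1, edgeR). For these 3 secreted proteins the 1 tumour value lay above both wild type values. The same held for 26.0% of all genes that reached the count minimum.

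Cebpd was the most abundant of the called genes in tumour muscle. It was at 126 CPM there, against 27.2 and 41.5 CPM in the wild type libraries (log2 change 1.87 ± 0.60, adjusted p = 1, edgeR). Bcl3 was at 8.56 CPM in tumour PBS muscle, against 1.64 and 1.75 CPM in wild type muscle (log2 change 2.33 ± 0.99, adjusted p = 1, edgeR). The wild type libraries were closest to each other for this gene, at 1.69 ± 0.0744 CPM (SD, n = 2). Osmr was at 39.8 CPM in tumour PBS muscle, against 11.7 and 17.6 CPM in wild type muscle (log2 change 1.44 ± 0.59, adjusted p = 1, edgeR).

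The 4 other members did not pass the size rule. Stat3 was at 106 CPM in tumour PBS muscle, against 67.1 and 77.5 CPM in wild type muscle, ratios of 1.59 and 1.37, and its adjusted p in edgeR was 1. Il6st was at 166 CPM in tumour PBS muscle, between the wild type values of 98.4 and 178 CPM. Hp was at 65.5 CPM in tumour PBS muscle, against 6.70 and 230 CPM, and Il6ra was at 3.06 CPM against 0.234 and 8.77 CPM. For both genes the tumour value lay between wild type libraries that differed 34.3-fold and 37.4-fold, and the direction depends on the library. Against wild type library 1, of the same set as the tumour library, Hp was higher by a ratio of 9.78 (8.25 to 11.7) and Il6ra by 13.1 (5.42 to 41.0). Against that library alone 8 of 10 members were higher and 0 lower, and against library 2 alone 6 were higher and 2, Hp and Il6ra, were lower. Between those wild type libraries 14.4% of genes were past the size rule in favour of library 2 and 12.2% in favour of library 1.

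**Figure D2:**
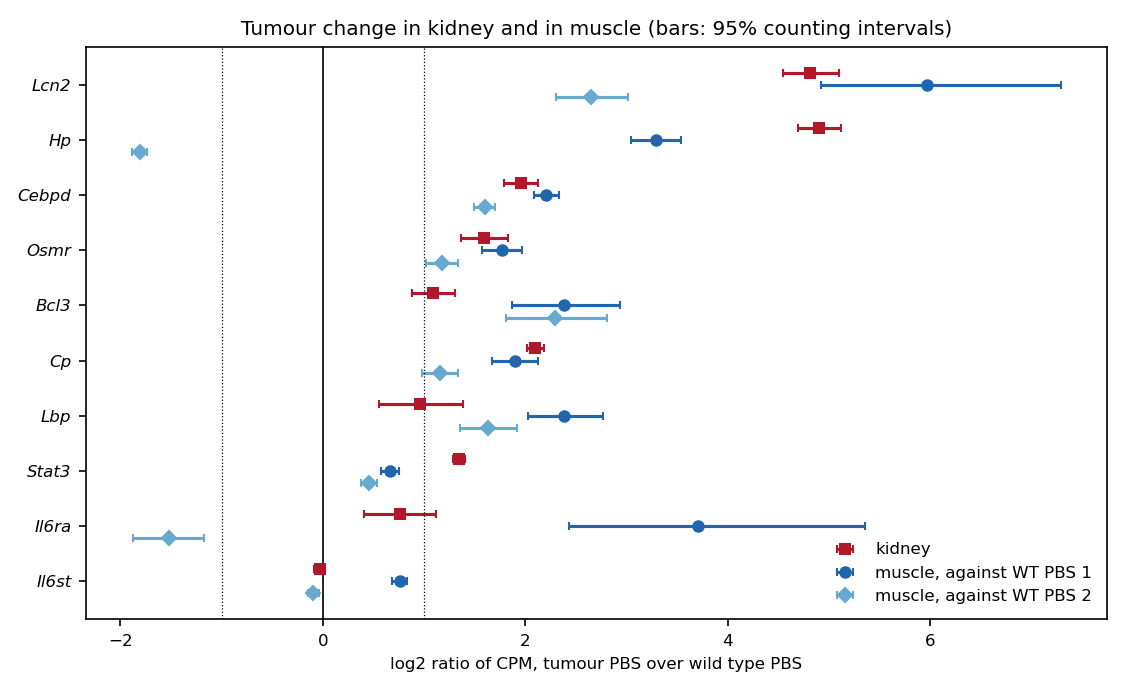
Log2 ratio of tumour PBS over wild type PBS for each gene in kidney, 1 ratio, and in muscle, 1 ratio against each wild type library, with bars for 95% counting intervals and dotted lines at the size limit. Lcn2, Cebpd, Osmr, Bcl3 and Cp are to the right of the limit at every point, and Hp and Il6ra in muscle have points on either side of 0.

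Kidney and muscle can be set side by side, and their tumour comparisons share no library. The labels do not say whether kidney and muscle came from the same mice, so the comparisons may not be independent. Lcn2, Cebpd, Osmr, Bcl3 and Cp were higher by the size rule in both, 5 of the 7 genes called in kidney and 5 of the 6 called in muscle. Over all genes that reached the count minimum in both tissues, 34 of 10368, or 0.328%, were higher in both. The kidney call needs 1 library of the same set, while the muscle call needs both wild type libraries, 1 of them from another set. By these unlike rules Stat3 and Hp passed in kidney alone and Lbp in muscle alone. Against muscle library 1 alone, of the same set, Hp and Il6ra were higher, with ratios of 9.78 and 13.1. Against library 2 they were lower, with ratios of 0.285 and 0.349. The difference between the tissues was not tested, since kidney had 1 library per group. For Lbp the ratio was 1.95 in kidney, and 5.23 and 3.10 against the wild type libraries in muscle. With both wild type muscle libraries required, Il6ra and Il6st passed in neither tissue.

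The genomic positions of the genes are those of build GRCm38 (mm10). Lcn2 lies on chromosome 2 at 32384633 to 32388252 on the minus strand, and Cp on chromosome 3 at 19957054 to 20009145 on the plus strand. Cebpd lies on chromosome 16 at 15887286 to 15891031 on the plus strand, Osmr on chromosome 15 at 6813577 to 6874969 on the minus strand, and Bcl3 on chromosome 7 at 19808462 to 19822770 on the minus strand. Of the exon bases of Cebpd, 15% are shared with Spidr on the opposite strand, and 6.51% of those of Bcl3 are shared with the antisense gene Gm16175. The strand setting of the counting is not given in the sources used here, so reads in those stretches cannot be assigned to 1 gene with certainty. The other overlaps were 2.8% of the exon bases for Il6ra, 1.13% for Cp and 0.756% for Stat3.

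RefSeq promoter windows on build GRCm38.p6, running from 250 bases before to 50 bases after a start, were matched for 7 of the 10 genes, in 8 windows. The 250 bases before the start are shown for Lcn2, Bcl3 and Cp, which were higher in both tumour tissues, and for Il6st, which was past the limit in neither. Capitals mark a match to the C/EBP letters TTGCNNAA, and Cp is shown at its first start. The starts are those of RefSeq and can differ from the ends of the gene positions given above. The Lcn2 window shown lies inside that gene's interval, and the Bcl3 window overlaps the end of its interval.
Lcn2 at chr2:32387740-32387989, minus strand: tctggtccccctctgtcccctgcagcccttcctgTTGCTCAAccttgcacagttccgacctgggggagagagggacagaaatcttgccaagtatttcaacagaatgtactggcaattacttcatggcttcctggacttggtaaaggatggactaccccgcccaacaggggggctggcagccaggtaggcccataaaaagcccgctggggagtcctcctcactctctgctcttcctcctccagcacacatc
Bcl3 at chr7:19822756-19823005, minus strand: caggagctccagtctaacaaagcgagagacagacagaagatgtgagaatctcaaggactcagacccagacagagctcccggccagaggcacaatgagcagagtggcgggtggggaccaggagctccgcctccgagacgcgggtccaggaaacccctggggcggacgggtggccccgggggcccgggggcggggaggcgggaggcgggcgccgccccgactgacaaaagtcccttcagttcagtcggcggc
Cp at chr3:19956804-19957053, plus strand: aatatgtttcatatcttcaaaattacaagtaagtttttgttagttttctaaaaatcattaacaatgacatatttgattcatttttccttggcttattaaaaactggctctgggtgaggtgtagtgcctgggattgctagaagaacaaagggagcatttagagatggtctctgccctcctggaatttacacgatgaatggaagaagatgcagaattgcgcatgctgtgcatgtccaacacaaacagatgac
Il6st at chr13:112463820-112464069, plus strand: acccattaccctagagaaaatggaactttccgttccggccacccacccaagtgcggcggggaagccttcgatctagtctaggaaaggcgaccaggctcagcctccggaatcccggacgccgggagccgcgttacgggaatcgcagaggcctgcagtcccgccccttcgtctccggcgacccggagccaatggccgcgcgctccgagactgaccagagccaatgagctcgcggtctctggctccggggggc
These windows differ in base composition, with a GC content of 56.4% for Lcn2, 67.6% for Bcl3, 37.2% for Cp and 66% for Il6st. Searched on both strands over the full windows of 300 bases, TTGCNNAA was found in 2 of the 8, against 10.8% of 32851 promoters in all. In Lcn2 the letters were TTGCTCAA, lying between 216 and 209 bases before the start. In the window of the other Cp start they were TTTTGCAA, a match on the opposite strand between 70 and 63 bases before it. The STAT letters TTCNNNGAA, the letters CTGGGAA of the IL-6 response element and the NF-kappa-B consensus were in 0 of the 8 windows, against 8.3%, 11.1% and 0.411% of all promoters. A match describes the letters alone, and the 8 windows of 7 genes are few.

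Of the 61 further pathway genes, 3 were higher by the size rule in tumour PBS muscle, 0 were lower, and 26 had too few counts. The 3 were Icam1, Socs3 and Junb, and none of the plasma protein genes named in kidney was among them. Of those genes, C3 was at 220 CPM in tumour PBS muscle, against 41.7 and 132 CPM in wild type libraries 1 and 2. Serpina3n was at 18.1 CPM, against 4.22 and 64.3 CPM. Against library 1 alone, of the same set, C3 and Serpina3n were higher by the size rule. Itih4, Apcs, Fgg and Fga had too few counts in that pair. Icam1, an adhesion molecule for leukocytes, was at 22.2 CPM in tumour PBS muscle, against 4.08 and 4.97 CPM in wild type muscle. Socs3 was at 25.5 CPM in tumour PBS muscle, against 9.47 and 12.1 CPM in wild type muscle. Junb, an AP-1 transcription factor, was at 76.2 CPM in tumour PBS muscle, against 34.4 and 34.6 CPM in wild type muscle. With the members included, 4 of 16 STAT3 targets and 3 of 25 acute phase genes were higher.

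Neutrophil markers, like Lcn2, were highest in tumour PBS muscle. They summed to 360 CPM in tumour PBS muscle, against 14.6 and 8.29 CPM in wild type muscle, with 11 of 13 genes higher by the size rule. Lcn2, itself a neutrophil granule protein, was at 5.72% of that sum in tumour PBS muscle, against 2.25% and 39.5% in the wild type libraries. Over the 7 muscle libraries the order of Lcn2 differed from that of the sum, and of the wild type libraries the one with more Lcn2 had the lower sum. The part of neutrophils in its change was not tested. In the other groups, between 2 and 7 of the 13 markers were at 0 counts in each library labelled knockout, wild type DKK1 or wild type PBS. Summed macrophage markers were at 318 CPM in tumour PBS muscle, against 98.9 and 594 CPM in wild type muscle, and adipocyte markers at 950 CPM against 300 and 1186 CPM. Erythroid markers summed to 1295 CPM in tumour PBS muscle, against 331 and 325 CPM in wild type muscle, with 2 of 3 higher by the size rule, and their part in the members' values was not tested.

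**Figure D3:**
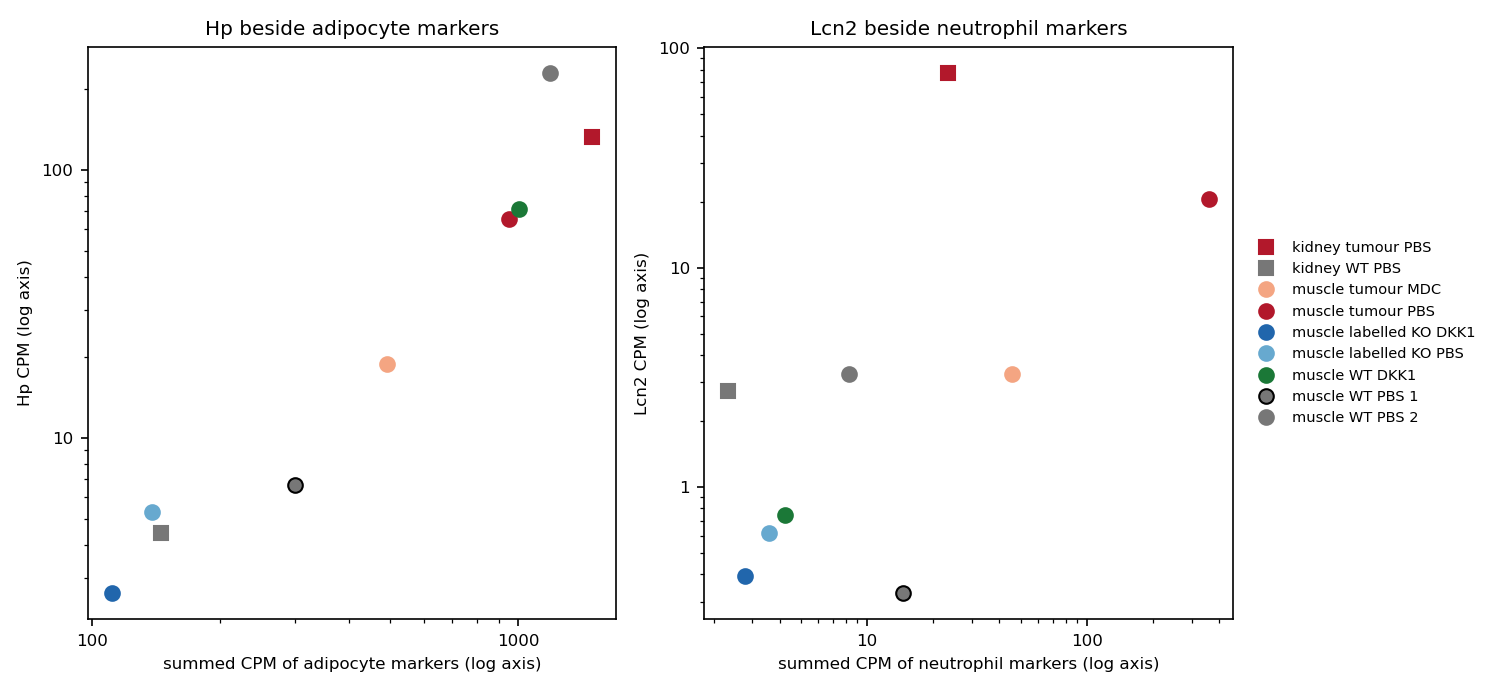
CPM of Lcn2 against summed neutrophil markers and of Hp against summed adipocyte markers, 1 point per library on log axes. In the 7 muscle libraries Hp has the same order as the adipocyte markers, and tumour PBS muscle has the highest Lcn2 and the highest neutrophil sum.

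The next comparison, MDC against PBS in tumour muscle, asks what the given agent changed when a tumour was present. Lcn2, Hp and Cp were lower by the size rule, 3 of 10 members, and 0 were higher, against 3.37% of all genes lower and 1.18% higher. Lcn2 was at 3.26 CPM in tumour MDC muscle and 20.6 CPM in tumour PBS muscle, 6.31-fold lower. Hp was at 18.9 CPM in tumour MDC muscle and 65.5 CPM in tumour PBS muscle, 3.47-fold lower. Cp was at 15.7 CPM against 32.1 CPM, 2.04-fold lower, with a 95% counting interval of its ratio of 0.433 to 0.552 that holds the limit. All 3 are secreted proteins. Cebpd, just outside the limit, was at 69.2 CPM in tumour MDC muscle and 126 CPM in tumour PBS muscle, 1.81-fold lower. With scaling by total counts its ratio was 0.452, past the limit.

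The receptors and Stat3 differed less between tumour MDC and tumour PBS muscle. Osmr was at 41.1 CPM with MDC and 39.8 CPM with PBS, a ratio of 1.03 (0.948 to 1.12), and was the only member above the PBS value, but with scaling by total counts its log2 ratio was −0.24. Il6ra had a ratio of 0.993 and Il6st of 0.875. Stat3, Lbp and Bcl3 had ratios of 0.739, 0.732 and 0.705. The median log2 ratio over the 10 members was −0.48, against 0.02 over all genes. No member reached an unadjusted p of 0.05 in edgeR's quasi-likelihood test, where Lcn2 came closest (log2 change −2.66 ± 1.38, adjusted p = 1), and 38 of all genes did.

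In the same pair of libraries, markers of some other cells were lower with MDC as well, and others were higher. Summed neutrophil markers were at 45.6 CPM in tumour MDC muscle and 360 CPM in tumour PBS muscle, with 11 of 13 genes lower by the size rule. Adipocyte markers were at 491 CPM with MDC and 950 CPM with PBS, with 6 of 7 lower, and macrophage markers were at 169 and 318 CPM, with 4 of 11 lower. Slow fibre markers were at 889 CPM with MDC and 117 CPM with PBS, with 5 of 5 higher. Hepatocyte markers were at 21.3 CPM with MDC and 8.73 CPM with PBS, with 2 of 7 higher. The part of these cells and fibres in the values of Lcn2 and Hp was not tested. Among the further pathway genes Cd14, Icam1 and C3 were lower and Hpx was higher. Cd14, the co-receptor that takes lipopolysaccharide from the Lbp protein, was at 3.31 CPM with MDC and 10.1 CPM with PBS. C3 was at 101 CPM with MDC and 220 CPM with PBS, and Icam1 at 9.92 and 22.2 CPM. Hpx, which encodes the haem-binding protein hemopexin, was at 5.05 CPM with MDC and 1.44 CPM with PBS.

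Set against wild type PBS muscle, tumour MDC muscle still had 3 of 10 members higher by the size rule and 0 lower, where 0.776% of all genes were higher and 0.736% lower. They were Osmr, Bcl3 and Lbp. Osmr was at 41.1 CPM in tumour MDC muscle, against 11.7 and 17.6 CPM in wild type muscle (log2 change 1.49 ± 0.59, adjusted p = 1, edgeR), the highest of the 7 muscle libraries. Bcl3 was at 6.03 CPM in tumour MDC muscle, against 1.64 and 1.75 CPM in wild type muscle. Lbp was at 12.4 CPM in tumour MDC muscle, against 3.23 and 5.45 CPM in wild type muscle. Lcn2 lay at 3.26 CPM, next to the 3.27 CPM of wild type library 2, which is of another set. Against the 0.328 CPM of library 1, of the same set, its ratio was 9.94 (4.59 to 25.6), from 73 and 7 counts. Scaling by total counts left 1 of the 3 calls, that of Bcl3. It also put Osmr below tumour PBS muscle, at a ratio of 0.846, so its place as highest depends on the scaling. Slow fibre markers summed to 889 CPM in tumour MDC muscle, against 5.62 and 289 CPM in wild type muscle, with 5 of 5 higher, and erythroid markers to 2567 CPM against 331 and 325 CPM, with 2 of 3 higher. Their part in the members' values was not tested. This comparison and that of tumour PBS muscle share both wild type libraries.

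**Figure D4:**
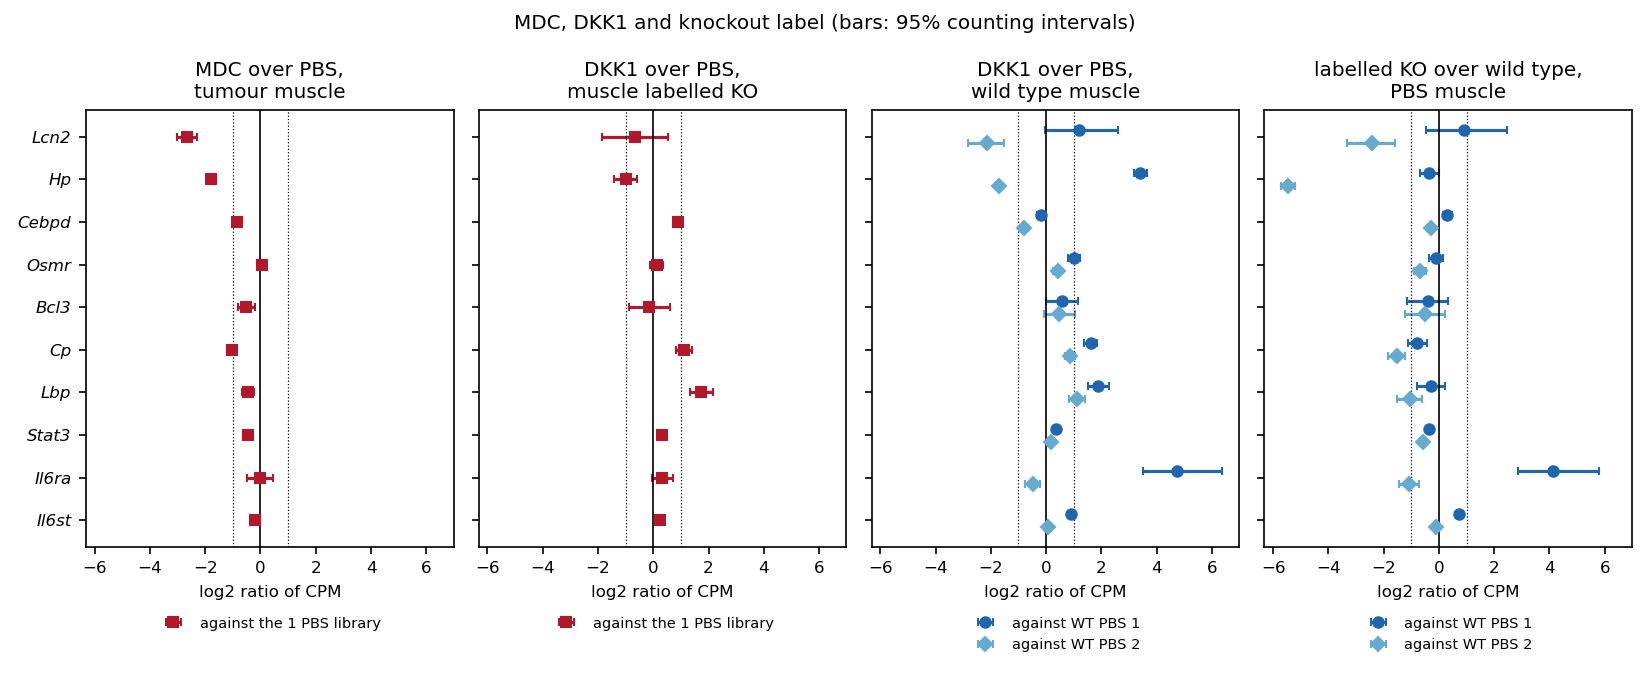
Log2 ratio of CPM for each gene for MDC over PBS in tumour muscle, DKK1 over PBS in muscle labelled knockout, DKK1 over PBS in wild type muscle, and the knockout label over wild type with PBS, with 95% counting intervals and dotted lines at the size limit. Lbp is to the right of the limit at every DKK1 point, and Lcn2 and Hp have the lowest points with MDC.

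DKK1 was given to wild type mice and to those labelled knockout, and Lbp was higher with it in both. In muscle labelled knockout, Lbp was at 8.77 CPM with DKK1 and 2.64 CPM with PBS, a ratio of 3.32 (2.53 to 4.42). In wild type muscle it was at 11.9 CPM with DKK1, against 3.23 and 5.45 CPM with PBS, ratios of 3.68 and 2.18. It was the only member past the size rule in wild type muscle, 1 of 10 higher and 0 lower, where 2.41% of all genes were higher and 0.271% lower. Its log2 change there was 1.45 ± 0.73 (adjusted p = 1, edgeR).

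In muscle labelled knockout, 2 members were higher with DKK1 and 1 was lower, against 2.28% and 0.72% of all genes. Besides Lbp, Cp was at 10.8 CPM with DKK1 and 5.03 CPM with PBS, a ratio of 2.15 (1.75 to 2.67). In wild type muscle Cp was at 26.4 CPM with DKK1, against 8.62 and 14.4 CPM with PBS, and the ratio of 1.84 to library 2 kept it under the limit. Hp was at 2.64 CPM with DKK1 and 5.28 CPM with PBS under the knockout label, at the limit, and its call was lost with DESeq2 size factors and with scaling by total counts. In wild type muscle Hp was at 71.4 CPM with DKK1, between the PBS values of 6.70 and 230 CPM. None of the members reached an unadjusted p of 0.05 for DKK1 in edgeR in either setting.

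Cell and fibre markers also differed with DKK1. Under the knockout label, slow fibre markers summed to 3568 CPM with DKK1 and 26.9 CPM with PBS, with 5 of 5 higher by the size rule, and erythroid markers to 622 CPM with DKK1 and 263 CPM with PBS, with 2 of 3 higher. In wild type muscle, 2 of 6 endothelial, 2 of 6 fibroblast and 2 of 3 erythroid markers were higher with DKK1. Endothelial markers summed to 734 CPM with DKK1 there, against 227 and 390 CPM with PBS. Their part in the values of Lbp and Cp was not tested. Of the further pathway genes, C4b, Zfp36, C3 and Cebpb were higher with DKK1 under the label, and Icam1 was higher in wild type muscle.

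The DKK1 ratios of Cebpd pointed opposite ways. It was at 63.3 CPM with DKK1 and 33.7 CPM with PBS in muscle labelled knockout, a ratio of 1.88, just under the limit. Scaling by total counts put that ratio at 2.05, past the limit. In wild type muscle it was at 23.8 CPM with DKK1, against 27.2 and 41.5 CPM with PBS, ratios of 0.875 and 0.573. With scaling by total counts the ratio to wild type library 1 was 1.43 and that to library 2 was 0.687, so the opposite direction depends on the scaling. The difference between these DKK1 changes was 1.44 ± 0.97 on the log2 scale (adjusted p = 1, edgeR interaction test), within the fitted error. By that test 0 of 15482 genes passed, with 44 at an unadjusted p under 0.05, 3 called by DESeq2 and 0 by limma-voom.

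Without DKK1, muscle labelled knockout had 0 of 10 members past the size rule against both wild type PBS libraries. Of all genes, 0.815% were higher and 0.667% lower. Below both wild type libraries were 6 of 10 members, against 22.8% of all genes, and above both were 0. Cp was at 5.03 CPM under the label, against 8.62 and 14.4 CPM in wild type muscle, and Lbp at 2.64 CPM against 3.23 and 5.45 CPM. Stat3 was at 51.9 CPM under the label, against 67.1 and 77.5 CPM in wild type muscle. Osmr, Cp, Lbp and Stat3 had their lowest value of the 7 muscle libraries here, 4 of 10 against 12.2% of all genes. In the deposited RPKM, scaled by total counts, Osmr and Lbp were instead lowest in wild type library 1. Osmr was at 1.90 RPKM there and 2.20 RPKM under the label. With that scaling neither Osmr nor Lbp lay below both wild type libraries. The counts of 6 members below both and of 4 lowest therefore depend on the scaling. Hp was the only member with an unadjusted p under 0.05 in edgeR's quasi-likelihood test, with 5.28 CPM under the label against 6.70 and 230 CPM (log2 change −4.48 ± 1.42, adjusted p = 1). That value rests on wild type library 2, which shares the set of the knockout-labelled library. Against library 1, of another set, the log2 change was −0.34. Against library 2 alone the Hp ratio was 0.0230 (0.0191 to 0.0274). Il6ra, Cp and Lbp were also lower by the size rule against that library, with ratios of 0.470, 0.350 and 0.484. Against library 1 alone, Il6ra was higher by the size rule, with a ratio of 17.6. Summed adipocyte markers were at 138 CPM under the label, against 300 and 1186 CPM in wild type muscle, with 4 of 7 lower by the size rule, and their part in the Hp value was not tested. Of the further pathway genes 1 was lower and 0 were higher. It was C4b, a complement component, at 4.62 CPM under the label, against 10.3 and 60.3 CPM in wild type muscle.

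With DKK1 in both, the knockout label went with 1 member higher and 2 lower, against 2.7% of all genes higher and 10.1% lower. Hp was at 2.64 CPM in muscle labelled knockout and 71.4 CPM in wild type muscle, 27.0-fold lower (adjusted p = 1, edgeR). Cp was at 10.8 CPM under the label and 26.4 CPM in wild type muscle, 2.44-fold lower. Cebpd was the member that was higher, at 63.3 CPM under the label and 23.8 CPM in wild type muscle, a ratio of 2.66. Osmr lay just outside the limit, at 11.9 CPM under the label and 23.6 CPM in wild type muscle. With scaling by total counts its ratio was 0.419, past the limit. Bcl3 was 2.17-fold lower, at 1.12 CPM under the label and 2.43 CPM in wild type muscle. Its 95 counts in wild type muscle fell short of the count minimum. Of the further pathway genes 11 were lower under the label and 0 higher, led by the plasma protein gene Orm1 at 0.243 CPM under the label and 3.20 CPM in wild type muscle. Serpina3n followed with 3.73 CPM under the label and 35.2 CPM in wild type muscle. Cntf, a ligand of the IL-6 family, was at 1.55 CPM under the label and 5.22 CPM in wild type muscle. Next came Steap4, at 40.4 CPM under the label and 117 CPM in wild type muscle, and Lrg1, at 15.3 CPM under the label and 35.5 CPM in wild type muscle.

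Markers of several cell and fibre types differed between the same libraries. Summed adipocyte markers were at 111 CPM in DKK1 muscle labelled knockout and 1004 CPM in wild type DKK1 muscle, with 7 of 7 lower, and endothelial markers at 238 and 734 CPM, with 6 of 6 lower. Fibroblast markers were at 818 CPM under the label and 1783 CPM in wild type muscle, with 3 of 6 lower. Slow fibre markers were at 3568 CPM under the label and 307 CPM in wild type muscle, with 5 of 5 higher, and the part of these cells and fibres in the values of Cebpd, Hp and Cp was not tested. Hp, which fat cells also make, had the same order as the summed adipocyte markers over all 7 muscle libraries, highest in wild type PBS library 2 and lowest in DKK1 muscle labelled knockout. As a share of that sum Hp ranged from 2.23% in wild type PBS library 1 to 19.4% in wild type PBS library 2. In the tumour kidney the share was 8.86%, against 3.05% in the wild type kidney.

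Over the 7 muscle libraries, tumour PBS had the highest value for 6 of 10 members, against 9.2% of all genes. These were Lcn2, Cebpd, Bcl3, Cp, Lbp and Stat3. Osmr was highest with MDC, Il6st in DKK1 muscle labelled knockout, and Hp and Il6ra in wild type PBS library 2. Some of these places depend on the scaling. In the deposited RPKM, scaled by total counts, Stat3 was at 24.9 in wild type DKK1 muscle and 24.7 in tumour PBS muscle. Cp was at 5.42 and 5.35 RPKM in those libraries. By RPKM Osmr was highest in tumour PBS muscle, at 8.59, and Il6st in wild type DKK1 muscle, at 43.8. Il6 had 9 counts in tumour MDC muscle and 4 in tumour PBS muscle, 0 and 7 counts in muscle labelled knockout with DKK1 and PBS, 0 with DKK1 in wild type muscle, and 0 and 1 in wild type PBS muscle. These counts are too few to compare.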

How the data were processed

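Per the labels' protocols, total RNA was extracted with TRIzol and sequenced as Illumina libraries. Per the submitters' processing notes, reads were aligned with HISAT2 2.1.0 to mm10; the sources used here give neither the counting program nor its annotation. The deposited tables hold raw read counts per gene, not normalised, and RPKM that the authors computed from the same counts.

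Counts were scaled with TMM within each tissue in edgeR 4.0.16 (R 4.3.3). For muscle, its quasi-likelihood test took in the 7 libraries together, each group with its own coefficient, and covered 15482 genes after a filter with a minimum count of 10, with Benjamini-Hochberg adjustment and a threshold of 0.05. Its 1 residual degree of freedom comes from the wild type PBS pair, which spans sets B and C. The fit therefore takes groups of 1 library to be as variable as that pair (biological coefficient of variation 0.498). DESeq2 1.42.0 and limma 3.58.1 were alternatives.

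Kidney, with 1 library per group, had no test. The size rule needs a CPM ratio of 2 or more and 100 counts in the higher library, against each wild type PBS library where that is the comparison. All 10 members are named for tumour PBS against wild type PBS in both tissues and for MDC against PBS. In the other comparisons only some members are named. Up to 6 further pathway genes are named per direction and comparison, by ratio. The members and gene lists were chosen with earlier results of these data known. Positions come from the GENCODE annotation of GRCm38.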

Additional observations from a re-analysis of the deposited data

Results flagged for a closer look

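Cebpd was singled out because its change with DKK1 went opposite ways in the knockout-labelled and the wild type muscle libraries. The log2 ratio of DKK1 over PBS was 0.91 in muscle labelled knockout, against -0.19 and -0.80 for wild type DKK1 muscle over wild type PBS libraries 1 and 2. The edgeR interaction test put the difference at 1.44 ± 0.97 on the log2 scale (adjusted p = 1), with 1 library in 3 of the 4 groups. With scaling by total counts the wild type ratios to libraries 1 and 2 were 1.43 and 0.687, which no longer point the same way.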

How the results depend on the processing

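The kidney count of 7 members and the tumour muscle count of 6 were the same under DESeq2 size factors and scaling by total counts. For MDC against PBS in tumour muscle, scaling by total counts took Cebpd past the limit as well, at a ratio of 0.452. It did the same for Cebpd with DKK1 under the knockout label, at a ratio of 2.05. For MDC against wild type (3 members), scaling by total counts gave 1 and leaving out a wild type library gave 5 to 5 (3 higher and 2 lower without library 1, 5 higher without library 2). For DKK1 against PBS in wild type muscle (1 member), scaling by total counts gave 2, a 1.5-fold limit 2, and leaving out a library 2 to 5 (1 higher and 1 lower without library 1, 5 higher without library 2). For the knockout label with PBS (0 members), a 1.5-fold limit gave 1 and leaving out a library 1 to 4 (4 lower without library 1, 1 higher without library 2). Total counts shifted log2 changes against averaged wild type libraries most in wild type DKK1 muscle, by 0.48.

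Genes called in muscle, 0 throughout in the main edgeR fit and with limma-voom, were more in other fits. DESeq2 called 12 for tumour against wild type, 11 for MDC against wild type, 4 for DKK1 in wild type, 19 for the label with PBS, 6 for the label with DKK1 and 3 for the interaction. Without the count filter edgeR called 28, 36, 18, 39, 24 and 17 in that order, and 11 for DKK1 under the label. Scaling by total counts gave 5 for tumour against wild type and 1 for the label with PBS, and fitting tumour and wild type PBS alone gave 5. The cause was not tested. No paired analysis was possible because the groups compared share fewer than 2 replicate numbers and animals are not given. Depth limits Lcn2 in wild type library 1, with 7 counts, and Il6ra there, with 5.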
